A study of Drosophila melanogaster and Drosophila mauritiana and Drosophila melanogaster x Drosophila mauritiana with 7 samples.

Results

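Small RNAs of transposons and satellites from the testis of D. melanogaster were set against those of D. mauritiana, the parental species of an interspecific cross. The comparison used 2 of the 7 libraries of the study. Its members were the repeats, as the authors annotated each sequence, that held at least 100 reads in either library. This left 160 of the 212 repeats of the table, of which 204 had a read in either library. The D. melanogaster flies carried the Hmr1 allele (strain label P{}Hmr1) of Hmr, a gene known for hybrid incompatibility, and are called Hmr1 here. The D. mauritiana flies were a wild-type stock from the CNRS. Both libraries came from whole testes of adults aged 0 to 5 days, and RNA of 19 to 29 nt was cut from a gel, although the titles give 18 nt as the lower limit. Each species had 1 library, so species, stock, Hmr allele and library cannot be told apart, replicate error is unknown and nothing was tested for significance. Because the table holds repeat sequences only, marker genes of the testis could not be examined.

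PIWI-interacting RNAs (piRNAs) guide Argonaute proteins of the PIWI clade to transposon transcripts in the gonads of animals. Primary piRNAs are cut from long transcripts of genomic clusters that hold old transposon copies, and they tend to begin with U, written T in the table. In the ping-pong cycle, which in Drosophila runs between the proteins Aubergine and AGO3 in germ cells, a guided cut makes a new piRNA that overlaps its guide by 10 nt at the 5′ ends and tends to carry A at base 10. In the D. melanogaster testis the best known piRNAs come from the Su(Ste) repeats of the Y chromosome and silence Stellate genes.

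The table held 441146 Hmr1 reads in 201578 distinct sequences and 133204 D. mauritiana reads in 65642 distinct sequences, all of 23 to 30 nt. Values are shares of these reads, given as percent or as reads per 1000000 (RPM), and a count of 3 reads equals 6.80 RPM in Hmr1 and 22.5 RPM in D. mauritiana. Shares add up to 100%, so a high share of one repeat lowers the others, and in whole testes fewer cells of a type cannot be told apart from less RNA per cell. Reads of both species were placed on dm6, a D. melanogaster genome build, so D. mauritiana copies that have diverged from it can be missing. Intervals are exact 95% intervals. They cover counting error only: without molecular identifiers, reads cannot be counted as separate molecules.

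Abundant sequences of each library are shown with the first base, where piRNAs favour T, and base 10, where ping-pong products favour A, in capitals. The most abundant sequences of Baggins1 and PROTOP in Hmr1 and of G_DM and G6_DM in D. mauritiana, chosen after their values were seen, are followed by the most abundant DMRT1C sequence with a single genomic hit, from the repeat with the largest ratio in favour of D. mauritiana, and by single-hit sequences of R1_DM and Stalker3_LTR from Hmr1.
Baggins1: TgacagcttCtagttcgtctaggac
PROTOP: TaacaagatGcatacgatgtggct
G_DM: CtctttcggTctcggttctgcacca
G6_DM: CttgagaatTgccttgtacaccagga
DMRT1C: TcgcttccaAtggtctcttgggg
R1_DM: TgtgatcggCatcgaaatgaaaacc
Stalker3_LTR: TatagatgtAatagatttggttttgga
The listed dm6 position of the Baggins1 sequence was chrX:22275672-22275696 on the plus strand, 1 of 11 hits, between the genes CG41562 and CG14621. It held 10640 reads in Hmr1 and 33 in D. mauritiana. The PROTOP sequence, with 5475 and 10 reads, was listed at chrY:854697-854720 on the minus strand, 1 of 6 hits, between ARY and Su(Ste):CR42422, a gene of the Su(Ste) repeats. The G_DM sequence had 0 reads in Hmr1 and 308 in D. mauritiana, with a listed place at chrX:23203586-23203610, minus strand, 1 of 2 hits. The G6_DM sequence had 0 and 223 reads and was listed within the gene lovit at chr3L:25287552-25287577, plus strand, 1 of 3 hits. The remaining 3 sequences each matched dm6 at 1 place outside genes. DMRT1C, at chr3L:23429791-23429813 on the minus strand between ND-MLRQ and AGO3, had 0 Hmr1 and 75 D. mauritiana reads. R1_DM, at chrX:22397752-22397776 on the minus strand, had 139 and 1 reads, and Stalker3_LTR, at chrX:21527629-21527655 on the plus strand, had 19 and 0. A count of 0 allows up to 6.80 RPM in Hmr1 and 22.5 RPM in D. mauritiana.

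Most repeats differed in share between the species by more than a factor of 2. In Hmr1, 51 of 160 repeats were at least 2-fold higher (31.9%), and in D. mauritiana 62 were at least 2-fold higher (38.8%), which is 70.6% of repeats in either direction. The other 47 lay within 2-fold. A ratio of at least 10 was reached by 16 repeats in favour of Hmr1 and by 21 in favour of D. mauritiana. The median log2 ratio of Hmr1 over D. mauritiana, with 1 read added to each count, was -0.28. Scaling by the median of the ratios instead of the read totals raises each log2 ratio by 0.27 and gives 59 repeats higher in Hmr1 and 51 in D. mauritiana. With each distinct sequence counted once the numbers were 50 and 32 of 151 repeats, and with single-hit sequences 34 and 17 of 82. Just inside the minimum of 100 reads lay NTS_DM, with 13 Hmr1 and 104 D. mauritiana reads, and just outside it G5A_DM, with 94 and 11. The minimum is a raw count, and Hmr1 had more reads in total. A repeat could therefore enter at a lower share through Hmr1 than through D. mauritiana, which bears on the counts in each direction.

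**Figure D1:**
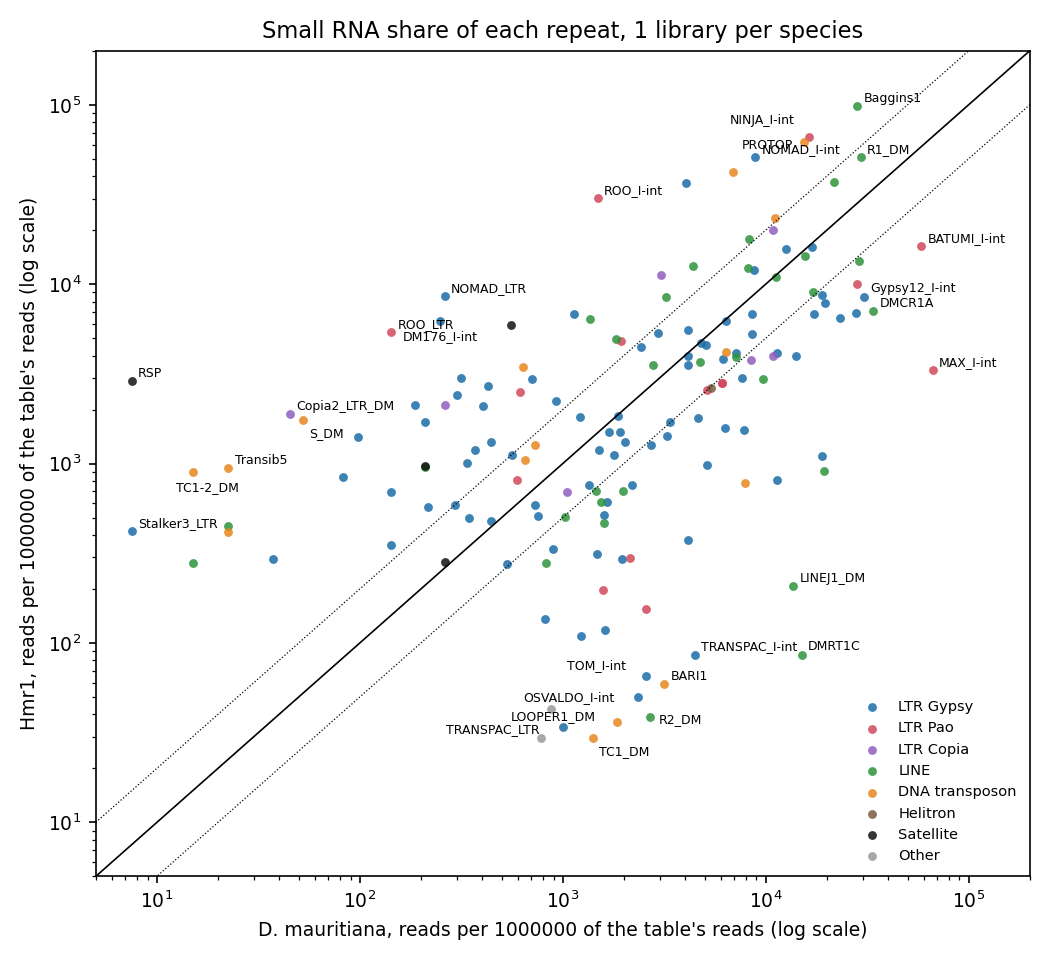
Reads per 1000000 (RPM) of each of the 160 repeats in D. mauritiana (x axis, log scale) and Hmr1 (y axis, log scale), 1 library each, coloured by class, with the line of equality and dotted lines at 2-fold. RSP and Stalker3_LTR lie at the left edge with 1 D. mauritiana read each, and DMRT1C and LINEJ1_DM lie far below the line.

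By class, the Hmr1 library held a larger share of satellite small RNA and, through the P-element class, of DNA transposon small RNA. Its share of the LTR Gypsy class was smaller. LTR retrotransposons of the Gypsy class made up 32.8% of Hmr1 reads and 40.5% of D. mauritiana reads, and those of the Pao class 14.8% and 19.8%. LINEs, retrotransposons without long terminal repeats, were at 32.5% and 29.7%, and Copia elements at 4.40% and 3.52%. DNA transposons, which move without an RNA intermediate, held 14.2% in Hmr1 and 5.65% in D. mauritiana, a ratio of 2.51 (2.45 to 2.57). The P-element class, which holds PROTOP, gave 55977 of the 62577 Hmr1 reads and 4477 of the 7524 D. mauritiana reads. The Transib, Tc1 and PiggyBac classes had lower shares in Hmr1: 6986 against 14955 RPM, 4450 against 5413 and 36.3 against 1854. The hAT class, with 1514 and 85 reads, leaned to Hmr1, as did MULE-NOF (14 and 2) and Pogo (11 and 0). Satellites were at 1.01% and 0.107%, a ratio of 9.39 (7.95 to 11.2). The ratios of the LINE and Pao classes turned on 1 repeat each: without Baggins1 and MAX_I-int, the most abundant repeats of Hmr1 and D. mauritiana, their log2 ratios went from 0.13 to -0.24 and from -0.42 to 0.15. Pao also changed sign when distinct sequences were counted once, to 0.058, and in single-hit sequences, to 1.19. In single-hit sequences the log2 ratio of DNA transposons went from 1.33 to 0.43 and that of satellites from 3.22 to 2.48. Scaled by the median of ratios, the log2 ratio of LTR Gypsy went from -0.31 to -0.03. DNA transposons were then at 1.60 and satellites at 3.49.

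**Figure D2:**
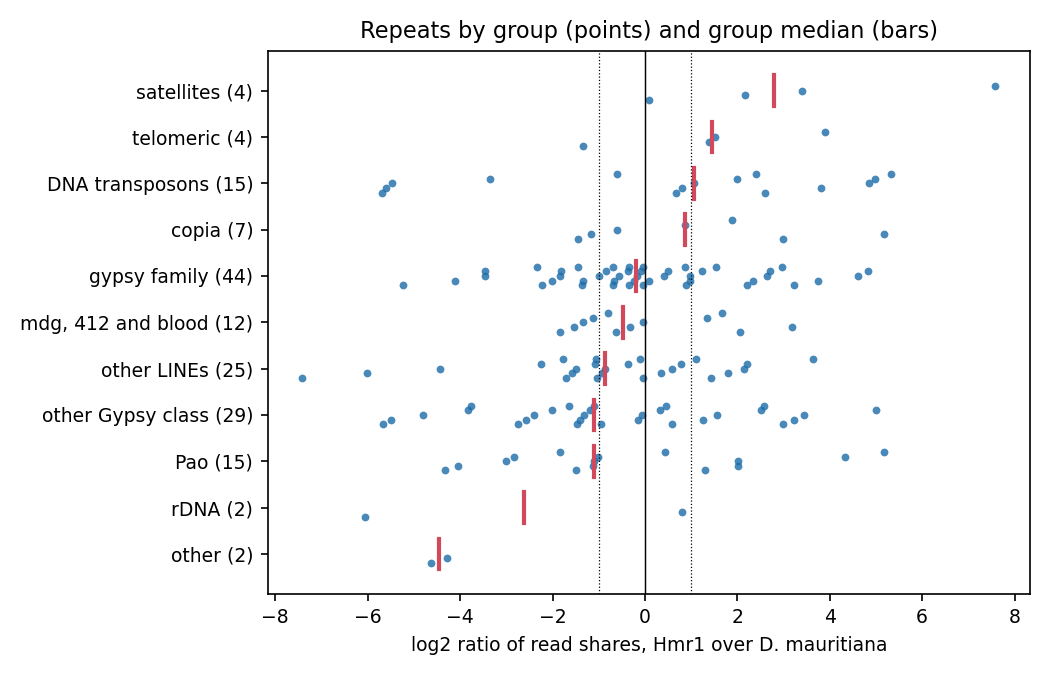
Log2 ratio of read shares, Hmr1 over D. mauritiana (x axis), of each measured repeat (points, spread vertically for view) by group, with the number of repeats in brackets and the group median as a bar; dotted lines mark 2-fold. Satellites and telomeric elements have medians of 2.78 and 1.45, and every group of 4 or more repeats except the satellites has members on both sides of 0. The 4 satellites all reached 100 reads in Hmr1 only.

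DNA transposons were divided. Of 15 measured, 8 were higher in Hmr1 and 4 in D. mauritiana, beside 31.9% and 38.8% of all repeats. The median log2 ratio was 1.06 beside -0.28 over all repeats. PROTOP, of the P-element class, had 61710 RPM in Hmr1 and 15518 in D. mauritiana, a ratio of 3.98 (3.80 to 4.16). PROTOP_A had 41950 and 6914 RPM, a ratio of 6.07 (5.68 to 6.49). HOBO, an hAT-type transposon that invaded D. melanogaster recently, had 1514 Hmr1 and 85 D. mauritiana reads, a ratio of 5.38 (4.32 to 6.77). These 3 repeats leaned the same way. Members of the Tc1 class lay at both ends. TC1-2_DM had 395 Hmr1 reads and 2 D. mauritiana reads, a ratio of 59.6 (16.4 to 494), and S_DM had 767 and 7, a ratio of 33.1 (16.0 to 82.6). BARI1, also of the Tc1 class, had 26 and 422, which is 53.8-fold (36.2 to 83.3) higher in D. mauritiana, and TC1_DM had 13 and 187, which is 47.6-fold (27.2 to 91.1) higher there. Of the Transib class, Transib5 had 416 Hmr1 reads and 3 D. mauritiana reads, a ratio of 41.9 (14.2 to 204). TRANSIB1, with 344 and 1058 reads, was 10.2-fold (9.01 to 11.5) higher in D. mauritiana. LOOPER1_DM, a PiggyBac-type transposon, had 16 and 247 reads, 51.1-fold (30.9 to 90.9) higher in D. mauritiana. The 1 Helitron measured, DNAREP1_DM, a rolling-circle transposon, was at 2620 and 5398 RPM, a ratio of 2.06 (1.87 to 2.26) in favour of D. mauritiana. That difference fell under 2-fold when scaled by the median of ratios, to a log2 ratio of -0.77 from -1.04, and was -0.52 in single-hit and -0.48 in distinct sequences.

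Among the 4 satellites, tandem repeats of heterochromatin, 3 were higher in Hmr1 and none in D. mauritiana. RSP, the Responder satellite that is the target of Segregation Distorter in D. melanogaster, had 1265 Hmr1 reads and 1 D. mauritiana read, a ratio of 382 (68.4 to 15099). SAR_DM had 2619 and 74 reads, a ratio of 10.7 (8.48 to 13.7), and HETRP_DM had 430 and 28. The exception was SAR2_DM, whose 125 and 35 reads gave a ratio of 1.08 (0.736 to 1.62).

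The retrotransposons that maintain Drosophila telomeres were higher in Hmr1 in 3 of 4 cases, beside 31.9% of all repeats. HETA had 8455 RPM in Hmr1 and 3228 in D. mauritiana, a ratio of 2.62 (2.37 to 2.90). TART had 12565 and 4384, a ratio of 2.87 (2.63 to 3.13), and TART_B1 had 197 and 3 reads. TAHRE went the other way, with 270 and 206 reads, 2.53-fold (2.10 to 3.04) higher in D. mauritiana. R1_DM and R2_DM, LINEs that insert into the 28S ribosomal RNA genes, were unlike each other. R1_DM was abundant in both libraries, with 51312 and 29323 RPM, a ratio of 1.75 (1.69 to 1.81). R2_DM had 17 Hmr1 reads and 360 D. mauritiana reads and was 70.1-fold (43.2 to 122) higher in D. mauritiana. XDMR and NTS_DM, the measured repeats outside the main classes, were also higher in D. mauritiana, with 19 against 116 and 13 against 104 reads.

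Of the 25 other LINEs, 6 were higher in Hmr1 and 11 in D. mauritiana, beside 31.9% and 38.8% of all repeats. Their median log2 ratio was -0.87. Baggins1, a LOA-type LINE, had the highest share of any repeat in Hmr1, with 98790 RPM, and 28220 in D. mauritiana, a ratio of 3.50 (3.39 to 3.62). FW_DM, the F element of the Jockey class, had 37155 and 21591, a ratio of 1.72 (1.65 to 1.79). DMCR1A, of the CR1 class, had 7077 and 33888 and was 4.79-fold (4.57 to 5.01) higher in D. mauritiana. The largest ratio of all in favour of D. mauritiana lay in this group. DMRT1C, an R1-type LINE, had 38 Hmr1 reads and 2004 D. mauritiana reads, a ratio of 175 (127 to 248). LINEJ1_DM, of the Jockey class, had 92 and 1816 reads, a ratio of 65.4 (53.0 to 81.5), and G5_DM, of the same class, had 399 and 2593, a ratio of 21.5 (19.4 to 24.0). I_DM, the I element that causes I-R hybrid dysgenesis in D. melanogaster, was within 2-fold, with 3926 and 7162 RPM.

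The Pao class held the most abundant repeat of D. mauritiana. Of 15 repeats, 5 were higher in Hmr1 and 9 in D. mauritiana, beside 31.9% and 38.8% of all repeats. The median was -1.11. MAX_I-int, the internal part of the element MAX, had 3305 RPM in Hmr1 and 66469 in D. mauritiana. BATUMI_I-int had 16360 and 58354 RPM, 3.57-fold (3.45 to 3.68) higher in D. mauritiana, but its log2 ratio was -0.11 in single-hit sequences. NINJA_I-int leaned to Hmr1, with 66361 and 16343, a ratio of 4.06 (3.89 to 4.24). ROO_I-int, the internal part of roo, an abundant retrotransposon of D. melanogaster, had 13248 and 198 reads, and its long terminal repeat ROO_LTR had 2379 and 19, a ratio of 37.8 (24.2 to 62.9). Shares in this class thus spanned log2 ratios from -4.33 to 5.17.

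Copia elements numbered 7, of which 3 were higher in Hmr1 and 2 in D. mauritiana, beside 31.9% and 38.8% of all repeats. Copia_I-int had 19975 and 10886 RPM, a ratio of 1.84 (1.74 to 1.94). DM1731_I-int had 3971 and 10833 and was 2.73-fold (2.54 to 2.93) higher in D. mauritiana, although its few single-hit reads leaned to Hmr1, with a log2 ratio of 1.06. Copia2_LTR_DM had 835 Hmr1 and 6 D. mauritiana reads, a ratio of 42.0 (19.2 to 115).

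The gypsy family, several of whose members are known from the somatic cells of the Drosophila ovary, was evenly divided. Of 44 repeats, 11 were higher in Hmr1 and 12 in D. mauritiana, beside 31.9% and 38.8% of all repeats. The median was -0.20, and 0.07 when scaled by the median of ratios. Gypsy12_I-int had 8523 and 30472 RPM, 3.58-fold (3.42 to 3.74) higher in D. mauritiana, with a log2 ratio of -0.59 in single-hit sequences. Gypsy4_I-int had 6875 and 27837, 4.05-fold (3.86 to 4.25) higher. TOM_I-int had 29 and 342 reads, 39.1-fold (26.7 to 59.2) higher in D. mauritiana. At the other end, DM176_I-int had 2742 Hmr1 and 33 D. mauritiana reads, a ratio of 25.1 (17.8 to 36.5), and Stalker3_LTR had 186 and 1, a ratio of 56.2 (9.96 to 2230). ZAM_I-int, IDEFIX_I-int and GTWIN_I-int, internal parts of elements that the flamenco locus controls in the D. melanogaster ovary, were within 2-fold. ZAM_I-int had 1122 and 1779 RPM, IDEFIX_I-int 6789 and 8588, and GTWIN_I-int 1197 and 1509. This did not hold for all parts or for the whole family. IDEFIX_LTR had 1834 and 1869 RPM, but GTWIN_LTR had 129 Hmr1 and 5 D. mauritiana reads. Gypsy_I-int had 3992 and 14144 RPM, a log2 ratio of -1.82.

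Of the 12 repeats of the mdg, blood and related elements, 4 were higher in each species, near the 31.9% and 38.8% of all repeats. MDG3_I-int had 36623 and 4054 RPM, a ratio of 9.03 (8.29 to 9.86). DM412 had 6494 and 23107, 3.56-fold (3.38 to 3.75) higher in D. mauritiana. The 29 remaining repeats of the Gypsy class were grouped after their values were known. Of these, 8 were higher in Hmr1 and 15 in D. mauritiana, beside 31.9% and 38.8% of all repeats. NOMAD_I-int had 51019 and 8889 RPM, a ratio of 5.74 (5.41 to 6.09), with a log2 ratio of 0.38 in single-hit sequences. NOMAD_LTR had 3794 and 35 reads, a ratio of 32.7 (23.5 to 47.1). TRANSPAC_I-int had 38 and 595 reads, 51.9-fold (37.3 to 74.0) higher in D. mauritiana, and TRANSPAC_LTR had 15 and 133. OSVALDO_I-int had 22 and 312 reads, 47.0-fold (30.5 to 76.0) higher in D. mauritiana. The most abundant member after NOMAD_I-int, Invader3_I-int by mean share, had 15698 and 12590 RPM, a ratio of 1.25 (1.18 to 1.32).

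Within elements, the long terminal repeat (LTR), which holds the promoter and flanks the coding internal part, leaned more to Hmr1 than the internal part did. This comparison was added after the values were seen. Among 42 elements with both parts measured, the log2 ratio of the LTR was above that of the internal part in 32 and below it in 10, with a median difference of 0.68. The LTR was above by at least 2-fold in 16 elements and below by as much in 4. Summed over these elements, LTR sequences made up 13.9% of Hmr1 reads (28712 of LTR beside 178301 of internal sequence) and 8.36% of D. mauritiana reads (5963 beside 65323). For TIRANT the internal part had 662 Hmr1 and 225 D. mauritiana reads, while the LTR had 1329 and 42, so the LTR held 66.8% of the element's reads in Hmr1 and 15.7% in D. mauritiana. MDG1 had 3010 and 2301 internal reads but 526 and 49 LTR reads, and DIVER2 had 4394 and 3740 internal reads but 2122 and 259 LTR reads. In MDG1 and DIVER2 the parts pointed to different species, while the internal part of TIRANT was nearly equal, at a log2 ratio of -0.17. MDG1 had a log2 ratio of -1.34 for the internal part and 1.67 for the LTR. The parts had ratios of opposite sign in 10 elements in all, some of them close to 0, such as Stalker2 at -0.035 and 0.093. Chimpo was the clearest exception, with 2033 and 678 internal reads and 129 and 261 LTR reads. In the main comparison a part needed 100 reads in either library, which is a lower share in Hmr1 than in D. mauritiana. The share of elements with the LTR above the internal part was 12 of 16 with at least 100 reads in each part and library, 16 of 20 in single-hit sequences, and 25 of 35 at equal depth. The median differences in these sets were 0.34, 1.05 and 0.52.

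**Figure D3:**
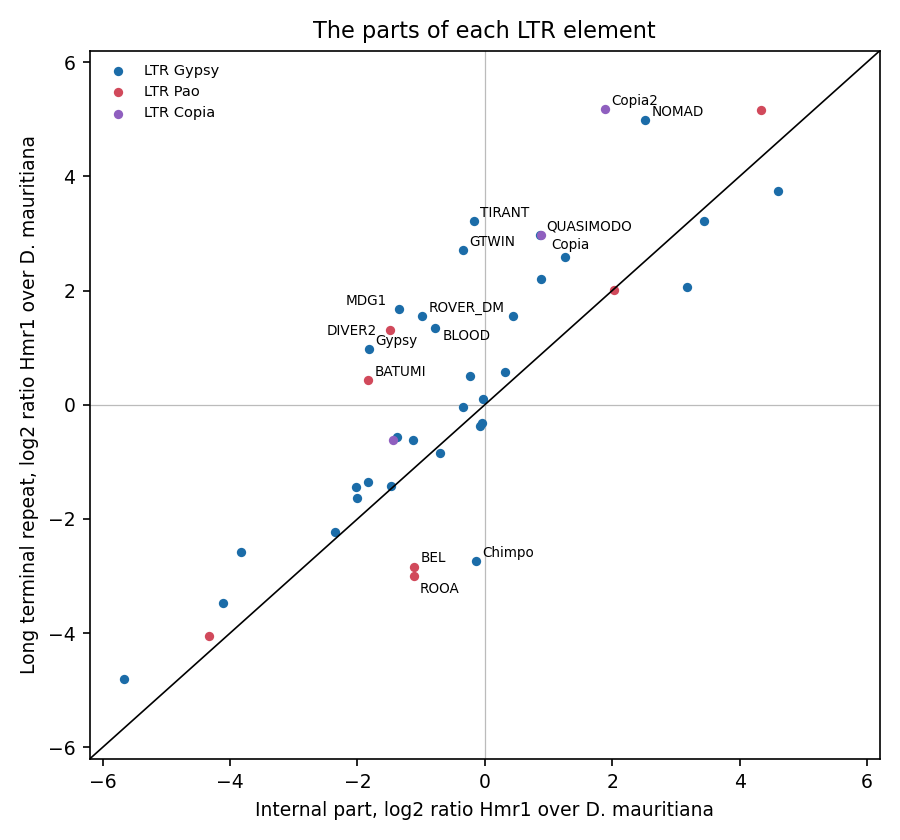
Log2 ratio of Hmr1 over D. mauritiana for the internal part (x axis) and the long terminal repeat (y axis) of 42 elements, 1 point an element, with the line of equality. In 32 elements the point lies above the line, with TIRANT and Copia2 highest above it, and Chimpo, ROOA and BEL farthest below.

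The most abundant sequences held a larger share in Hmr1. The top 10 made up 6.86% of reads in Hmr1 and 1.54% in D. mauritiana, whereas the top 1000 held 22.5% and 21.3%. Sequences with the same first 23 nt were summed as families. The leading PROTOP family, that of the PROTOP sequence above, held 13622 of the 27223 PROTOP reads of Hmr1, and the leading Baggins1 family 11970, 27.5% of Baggins1. Without these families of Hmr1 the log2 ratio went from 1.99 to 1.11 for PROTOP and from 1.81 to 1.44 for Baggins1. In the single-hit reads of Baggins1, which were 2.74% of its Hmr1 reads, the log2 ratio was -0.28. In D. mauritiana the leading G_DM family held 725 reads, 48.5% of G_DM, and had 0 reads in Hmr1. The leading TRANSIB1 family held 286 of the 1058 TRANSIB1 reads, also with 0 in Hmr1. G_DM as a whole was nearly equal, with 10953 RPM in Hmr1 and 11216 in D. mauritiana, while 101 of its 4832 Hmr1 reads and 18 of its 1494 D. mauritiana reads were in sequences found in both libraries.

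Sequences found in both libraries numbered 7942 of 259278 and held 17.1% of Hmr1 reads and 16.3% of D. mauritiana reads. At equal depth the shares were 17.0% and 8.80%. Of the 7942 sequences, 59 had at least 100 Hmr1 reads for each D. mauritiana read. They held 42772 Hmr1 and 164 D. mauritiana reads, and the other 7883 held 32670 and 21542. The 20 leading families of Hmr1, with 43984 reads, had 148 reads in D. mauritiana, or 0.336 for every 100 Hmr1 reads, with a range from 0 to 0.839 over families. For every 100 Hmr1 reads of some of the repeats highest in Hmr1, D. mauritiana held 0.0791 of RSP, 0.506 of TC1-2_DM, 0.538 of Stalker3_LTR, 0.922 of NOMAD_LTR and 1.49 of ROO_I-int. The first 3 lay within the range of the leading families and the last 2 above it. Of the D. mauritiana reads of ROO_I-int, 69.2% were in sequences also found in Hmr1. Whether reads passed between the libraries was not tested, and 10 of the 51 repeats higher in Hmr1 had fewer than 10 reads in D. mauritiana.

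Small RNAs of both libraries mostly began with T, as piRNAs do, but D. mauritiana reads began more often with A. T came first in 70.3% of Hmr1 reads (70.1 to 70.4) and 59.2% of D. mauritiana reads (59.0 to 59.5), and A in 9.12% and 18.9%. Among 99 repeats with at least 100 reads in each library, T was more frequent in Hmr1 in 83 and A in D. mauritiana in 91. For PROTOP_A, T came first in 68.9% of Hmr1 reads and 26.5% of D. mauritiana reads, where A came first in 53.3%. BARI1 had T first in 16.8% of its 422 D. mauritiana reads. HETA went the other way, with T first in 61.7% in Hmr1 and 75.6% in D. mauritiana, and Gypsy4_I-int differed little, at 77.5% and 79.6%. The T difference rested on abundant sequences. With each distinct sequence counted once, T came first in 61.1% in Hmr1 and 62.5% in D. mauritiana, and in 58 of the 99 repeats T was then more frequent in Hmr1. A remained less frequent in Hmr1 under that count, at 12.7% and 16.9%. A at base 10 was at 30.1% in Hmr1 and 28.1% in D. mauritiana.

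Read lengths differed less. Means were 24.9 nt in Hmr1 and 25.0 nt in D. mauritiana, but reads of 27 to 30 nt made up 10.5% and 15.7%. The most frequent length was 25 nt in Hmr1, at 29.3%, and 24 nt in D. mauritiana, at 25.2%. T first was at 68.4% of 23-nt and 71.9% of 28-nt reads in Hmr1, and at 54.2% and 69.2% of these lengths in D. mauritiana. The libraries thus differed most in first base among the shorter reads. Mean length was greater in D. mauritiana in 59 of the 99 repeats.

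**Figure D4:**
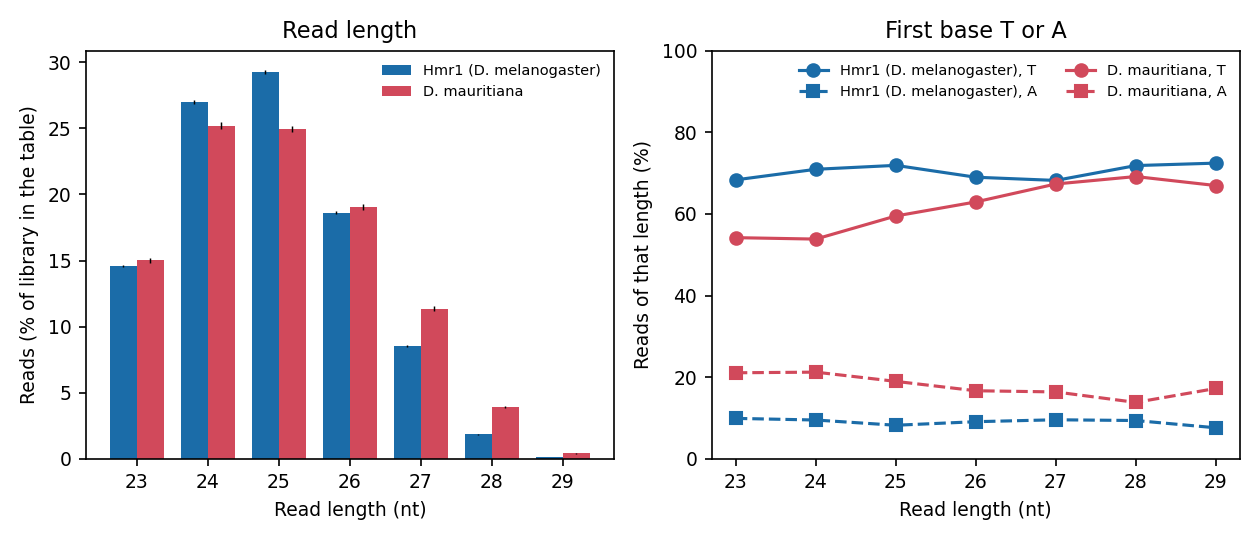
Left, share of reads (y axis, percent of the library's reads in the table) by read length in nt (x axis) with exact 95% intervals; right, share of reads of each length that begin with T (circles) or A (squares). Blue is Hmr1 and red D. mauritiana, 1 library each, and the 30-nt class (15 and 43 reads) is left out. The T lines are farthest apart at 23 and 24 nt and meet near 27 nt.

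Ping-pong partners were more frequent in D. mauritiana, but A at base 10 was not. That base was A in 30.1% of Hmr1 reads and 28.1% of D. mauritiana reads, and more often in Hmr1 in 55 of 99 repeats. A read was said to have a partner when the reverse complement of its first 10 nt began another sequence of the same repeat, and the background was the same with windows 1 to 6 nt further in. With Hmr1 thinned to the D. mauritiana total, the share with a partner was 34.1% in Hmr1 above 11.6% background, or 22.4 points, and 41.2% in D. mauritiana above 4.13%, or 37.0 points. Examples with a single hit each are shown, the paired 10 nt in capitals, first a BS pair from Hmr1 and then a DMRT1B pair from D. mauritiana.
BS plus strand: ATCGCTAATAatataaaacaatgagc
BS minus strand: TATTAGCGATttcaaatacgatatt
DMRT1B minus strand: CAACATCCTGctatccgcattcga
DMRT1B plus strand: CAGGATGTTGatcttgccattcatcc
The BS sequences lie in dm6 at chr2L:20112620-20112645 and chr2L:20112605-20112629 and had 7 and 71 Hmr1 reads and 0 in D. mauritiana. The DMRT1B sequences lie at chr3R:4020374-4020397 and chr3R:4020388-4020413 and had 5 and 21 D. mauritiana reads and 0 in Hmr1. Both pairs lie between genes.

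Per repeat, the comparison was repeated with each repeat thinned to the smaller of its counts, a choice made after the data were seen. D. mauritiana had more partner points in 81 of 99 repeats, with medians of 13.0 points in Hmr1 and 25.4 in D. mauritiana. Without the leading family of each repeat it was 85 of 99, with medians of 10.6 and 22.2, and with distinct sequences counted once 83 of 99, with medians of 8.33 and 17.8. Among other LINEs D. mauritiana was higher in 20 of 21, with medians of 17.7 and 40.0. R1_DM had 22.9 points in Hmr1 and 51.9 in D. mauritiana, and BATUMI_I-int 26.1 and 58.3. The gypsy family had medians of 3.17 and 11.3, and D. mauritiana was higher in 20 of 27. Its members varied widely: Gypsy5_I-int had -0.06 and 0.24 points and Gypsy4_I-int 5.92 and 2.68, while Gypsy12_I-int had 16.2 and 48.5 and DM297_LTR 3.17 and 42.7. PROTOP was higher in Hmr1, with 56.6 and 32.4 points, but without its leading family it had 13.8 and 34.6. TRANSIB1 likewise had 32.1 and 8.28 points, but 9.50 and 11.7 without its leading family. DIVER2_LTR was also higher in Hmr1, at 28.9 and 0.64, and stayed so without its leading families, at 15.9 and 8.10. For G_DM, with 9.52 and 59.2 points, the values without the leading family were 9.82 and 20.7.

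**Figure D5:**
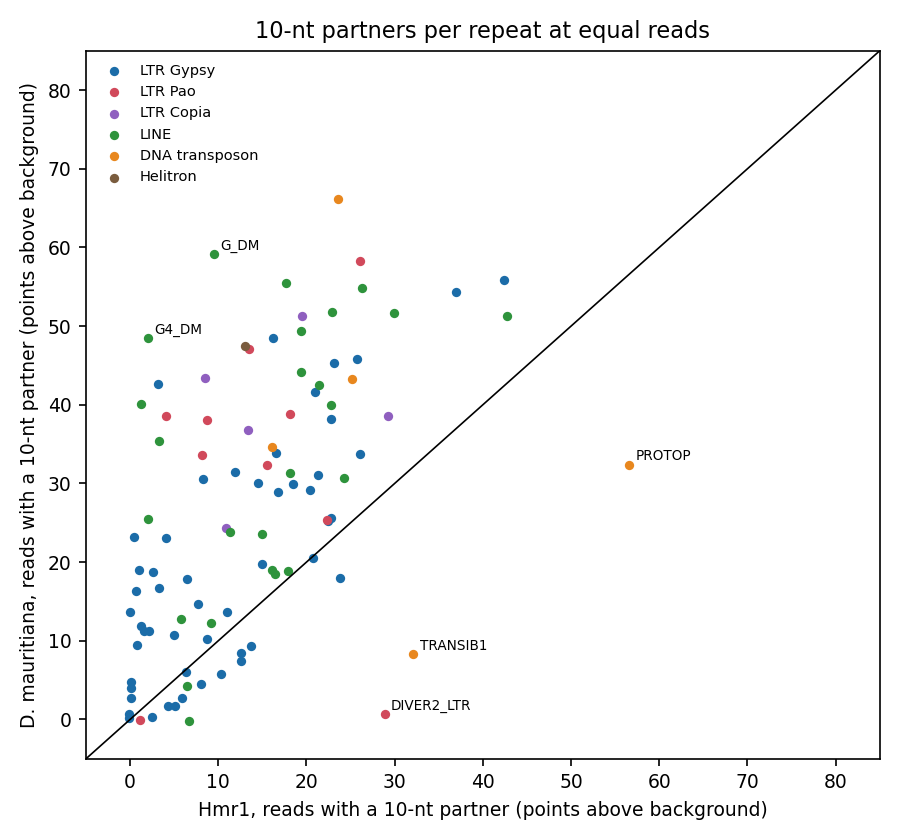
Reads with a 10-nt partner, in points above background, in Hmr1 (x axis) and D. mauritiana (y axis) for 99 repeats, each thinned to the same number of reads in both libraries, with the line of equality. In 81 repeats the point lies above the line; PROTOP, TRANSIB1 and DIVER2_LTR lie well below it.

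Single-hit reads, which can be placed in dm6, made up 8.94% of Hmr1 reads (39430) and 8.19% of D. mauritiana reads (10908). A single hit in dm6 does not give the place of a D. mauritiana read in its own genome, which was not examined. Single-hit reads were more concentrated in Hmr1: the 5 leading windows of 100 kb held 39.0% of them in Hmr1 and 12.8% in D. mauritiana. The window from 20.1 to 20.2 Mb of arm 2L, which holds a known piRNA cluster of D. melanogaster and the BS pair above, ranked first in both, with 6279 reads (15.9%) in Hmr1 and 398 (3.65%) in D. mauritiana. The window from 22.3 to 22.4 Mb of X held 13.8% and 1.58%, led by R1_DM in Hmr1. The window from 11.1 to 11.2 Mb of X, led by Gypsy5_I-int, held similar shares, 2.09% and 2.46%. By chromosome, X held 30.7% in Hmr1 and 13.1% in D. mauritiana, Y 13.8% and 6.45%, and 2L 20.5% and 11.6%. The other large arms had higher shares in D. mauritiana: 2R held 12.9% in Hmr1 and 25.1% in D. mauritiana, 3L 11.2% and 23.3%, and 3R 9.33% and 19.1%. At flamenco (lncRNA:flam, chrX:21631891-21790731), the main somatic piRNA cluster of the D. melanogaster ovary, there were 1719 Hmr1 reads, 4.36% of single-hit reads, and 119 D. mauritiana reads, 1.09%. Of these, 98.5% in Hmr1 and 82.4% in D. mauritiana lay on the plus strand. Reads with more than 100 hits in dm6 made up 8.86% in Hmr1 and 2.74% in D. mauritiana, so the libraries also differed in how their reads meet this genome, and its part in the shares above was not tested.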

How the data were processed

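The values were read counts per sequence, as deposited by the authors in a table of 350729 distinct sequences with 1 repeat annotation, a number of genomic hits and 1 listed hit each. Per the submitters' processing notes, the tools were cutadapt 1.8.1, Bowtie 1.2.2 and Bowtie 0.12.7 with genome build dm6. Their settings and the origin of the annotation are not given in the sources used here. Groups came from the sample labels. In the table, 1 other column of per-sample values was not used. The table's totals, 441146 and 133204 reads, are not library depths.

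Counts were summed per repeat and divided by the column total. Log2 ratios used a pseudocount of 1 read. Intervals were Clopper-Pearson for shares and conditional binomial for ratios at 95%. Equal depth means Hmr1 thinned to the D. mauritiana total (seed 20). Named were the 10 highest and 10 lowest ratios, the 5 most abundant repeats of each library and 2 repeats with the highest mean share in each list; other repeats were chosen after their values were seen. Apart from the partner pairs, the single-hit sequences shown were the most abundant of their repeat outside arm 2R. The members and lists were chosen with earlier results of these data known. Strand of reads with several hits was not used, since the listed hit is not a random one. Gene positions came from RefSeq genes of Release 6. The measures were tested on simulated data; Python 3.11.15, numpy 2.4.6, pandas 2.3.3, scipy 1.17.1 and matplotlib 3.10.9 were used.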

Additional observations from a re-analysis of the deposited data

How the results depend on the processing

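With 1 library per species there was no replicate to leave out. No paired analysis was possible because the groups hold 1 library each and so share fewer than 2 replicate numbers. The count of repeats higher in Hmr1 ranged from 34 to 62 over the alternatives. That of repeats higher in D. mauritiana was 17 in single-hit sequences and 32 for distinct sequences. The median log2 ratio was -0.0019 when scaled by the median of ratios, 0.41 in single-hit sequences and 0.11 for distinct sequences. In single-hit sequences the class log2 ratios were -0.66 for LTR Gypsy, 1.19 for LTR Pao, 0.095 for LINE, 0.43 for DNA transposons, -0.52 for Helitron and 2.48 for satellites. For distinct sequences they were -0.22 for LTR Gypsy, 0.058 for LTR Pao, 0.41 for LTR Copia, 0.057 for LINE, 0.81 for DNA transposons and -0.48 for Helitron. Without Baggins1 and MAX_I-int they were 0.15 for LTR Pao and -0.24 for LINE.

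The difference in T first, Hmr1 minus D. mauritiana, was 11.0 points; it was 7.94 in single-hit sequences, -1.39 for distinct sequences, 9.42 without Baggins1 and MAX_I-int, and 9.23 without the 2 leading families of Hmr1, an alternative chosen after seeing the data. For A at base 10 it was 2.88 in single-hit sequences and 2.86 without these repeats, beside 1.95. Mean length differed by -0.14 nt, by -0.035 nt in single-hit and -0.25 nt in distinct sequences. The share in sequences found in both libraries was 3.63% of Hmr1 and 6.11% of D. mauritiana reads in single-hit sequences, and 8.80% of D. mauritiana reads at equal depth. Partner points of Hmr1 were 24.3 at the deposited depth, 9.65 for distinct sequences and 20.2 without these repeats; those of D. mauritiana were 19.2 for distinct sequences and 34.6 without these repeats. The causes were not tested.

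Of the 43 named repeats, single-hit sequences gave a ratio for 38; DM1731_I-int went to 1.06 and Baggins1 to -0.28, and no other named repeat with a 2-fold difference changed sign under the alternatives run. Of the 34 of these that had differed 2-fold, 5 fell under 2-fold in single-hit sequences, namely Baggins1, Gypsy12_I-int, BATUMI_I-int, DNAREP1_DM and NOMAD_I-int. DNAREP1_DM also did so when scaled by the median of ratios, 1 of 39, and without the most abundant sequence of each repeat, 1 of 39. Depth limits repeats with few reads: 12 of the 62 repeats higher in D. mauritiana had fewer than 50 reads in Hmr1.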
